A study of Mus musculus with 8 samples.

Results

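Endothelial cells line the vessels of the brain, and 10 genes of these cells and of the blood-brain barrier were followed in the upper neocortex of mouse pups with and without targeting of Bcl6. The genes were listed by name: Cldn5, Cdh5, Esam and Pecam1 of the cell junctions, Kdr, Flt1 and Tek among the receptors, and Slc2a1, Mfsd2a and Abcb1a among the transporters. All 10 had a probe set that named no other gene, 1 for each, among the 19938 genes of the array that could be tested in this way. Total RNA of layers II-IV, taken by laser microdissection at postnatal day 5, was measured on Affymetrix Mouse Gene 1.0 ST arrays, with 1 array for each of 8 pups. The 4 controls were Bcl6 flox/flox;Nex +/+ and the 4 mutants Bcl6 flox/flox;Nex Cre/+, so that all 8 pups carried floxed Bcl6 alleles and only the mutants carried Cre, on 1 allele of Nex. Nex, also called Neurod6, is a gene of excitatory cortical neurons, so endothelial cells are not the cells in which this Cre is made. No group carried Cre without floxed Bcl6, and effects of the Cre allele cannot be told apart from those of Bcl6.

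In the brain, endothelial cells are sealed by tight junctions, carry few transport vesicles and depend on membrane transporters to pass nutrients inward and to push foreign compounds back into the blood. Vascular endothelial growth factor and the angiopoietins act on receptors of these cells to drive sprouting and to keep vessels stable, and Wnt ligands from neural cells induce the barrier. In the early postnatal mouse cortex the vessel network is still growing. The series title names a pathway of cell death in cortical projection neurons, and the comparison made here was whether the vascular genes of the same tissue differed between the genotypes.

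Facts of the arrays that bear on every value are given first. The median log2 value of an array was 4.94 to 5.01, and correlations between arrays lay between 0.9904 and 0.9939. The Bcl6 probe set did not read lower in the mutants: it lay between 6.23 and 6.58 in the arrays labelled control and between 6.61 and 6.96 in those labelled mutant (0.37 ± 0.10, SE, n = 4 per group; limma adjusted p = 0.655). The probes of this set have no stated position relative to the deletion, so the signal is no check of it, and the directions below are those of the labels. Xist, the RNA that silences an X chromosome in females, read 9.78 and 9.76 in mutant replicates 1 and 4 and at most 3.41 in the other 6 arrays, and Y-linked genes were lowest in the same 2 mutants. All controls thus read as male and the mutants as 2 males and 2 females, and values without mutant replicates 1 and 4 are given where they change a direction. Neurod6, the gene into which Cre was placed in the mutants, lay between 9.15 and 9.41 in the controls and between 8.69 and 9.07 in the mutants, so that all arrays labelled mutant were below all controls (limma adjusted p = 0.535). Slc17a7, a marker of excitatory neurons, had a control mean of 7.93. The table holds no detection calls, so whether a level lies above background could not be read from it.

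Promoter sequences are shown for 4 of the genes: Cldn5 and Mfsd2a, the pair that varied together most closely, and the other transporters Slc2a1 and Abcb1a. RefSeq promoters (GRCm38.p6) were matched for 7 of the 10 genes, Tek, Kdr and Flt1 being the others. Each sequence is the 250 bases before the transcript start, 5′ to 3′ on the strand of the gene, and capitals mark matches to the motifs named after them. For Mfsd2a the last 6 bases lie inside the annotated span of the gene.
Cldn5, chr16:18776597-18776846, plus strand: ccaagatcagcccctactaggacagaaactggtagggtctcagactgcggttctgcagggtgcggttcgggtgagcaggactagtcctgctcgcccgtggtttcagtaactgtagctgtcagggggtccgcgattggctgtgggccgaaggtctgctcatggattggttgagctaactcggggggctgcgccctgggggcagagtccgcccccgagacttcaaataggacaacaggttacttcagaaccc
Mfsd2a, chr4:122961189-122961438, minus strand: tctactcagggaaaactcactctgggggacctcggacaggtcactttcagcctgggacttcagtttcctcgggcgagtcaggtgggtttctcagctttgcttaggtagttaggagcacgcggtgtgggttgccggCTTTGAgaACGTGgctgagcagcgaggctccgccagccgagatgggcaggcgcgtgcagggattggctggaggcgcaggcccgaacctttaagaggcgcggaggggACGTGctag
Slc2a1, chr4:119108495-119108744, plus strand: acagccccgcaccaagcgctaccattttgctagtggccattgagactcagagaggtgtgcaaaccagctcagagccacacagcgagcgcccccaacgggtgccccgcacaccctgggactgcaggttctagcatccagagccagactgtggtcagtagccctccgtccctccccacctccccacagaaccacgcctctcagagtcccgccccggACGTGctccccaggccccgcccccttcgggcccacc
Abcb1a, chr5:8566841-8567090, plus strand: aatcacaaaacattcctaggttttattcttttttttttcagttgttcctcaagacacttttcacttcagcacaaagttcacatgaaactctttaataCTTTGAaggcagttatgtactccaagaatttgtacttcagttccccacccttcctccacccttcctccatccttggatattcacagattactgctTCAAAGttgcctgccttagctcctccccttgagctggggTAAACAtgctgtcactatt

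The motifs searched on both strands were ACTTCC for ETS factors, which act in endothelial genes, AGATAA for the GATA family, ACAATG for SOX factors, TAAACA for forkhead factors, CTTTGA for TCF/LEF, the end of Wnt signalling, ACGTG for hypoxia-inducible factors, TTCNNNGAA as a form close to the BCL6 site, and TATAAA for the TATA box. CTTTGA was found in Mfsd2a and, at 2 places, in Abcb1a, and 13.8% of all 32851 promoters of the same length hold it. ACGTG was found once in Slc2a1 and at 2 places in Mfsd2a, against 16.6% of all promoters, and TAAACA in Abcb1a, against 12%. The ETS form was found in Kdr and Flt1 (19.7% of all promoters) and TATAAA in Flt1 (12.4%), and for Kdr, Flt1 and Tek the annotated span of the gene begins upstream of the start site used. The GATA, SOX and BCL6-like forms had no match in the 7 windows, against 9.99%, 10.7% and 7.02% of all promoters. Cldn5 had no match to any of these motifs in its window, and whether it shares regulation with Mfsd2a was not tested. GC content of the windows ran from 40.4% in Abcb1a, with 0 CG pairs, to 70.4% in Flt1, with 23, against a median of 52.4% over all promoters.

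None of the 10 genes passed the test between the genotypes, and none had groups without overlap. With limma and Benjamini-Hochberg adjustment over 19938 genes, 0 of 10 passed the threshold of 0.05 and 0 of 10 had an unadjusted p under 0.05, while 0.0652% of all genes passed the first and 4.91% the second. The control and mutant values overlapped in all 10, and 2.75% of all genes had groups with no overlap. Differences (mutant minus control) ran from -0.00093 for Pecam1 to 0.14 for Flt1, with a median of 0.021 against -0.0096 over all genes. The 95% intervals of the 10 differences reached from -0.19 to 0.32, so that the bounds for single genes were 1.25-fold more in mutants and 1.14-fold more in controls. In tissue RNA of this kind, fewer endothelial cells and less RNA per cell cannot be told apart.

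**Figure D1:**
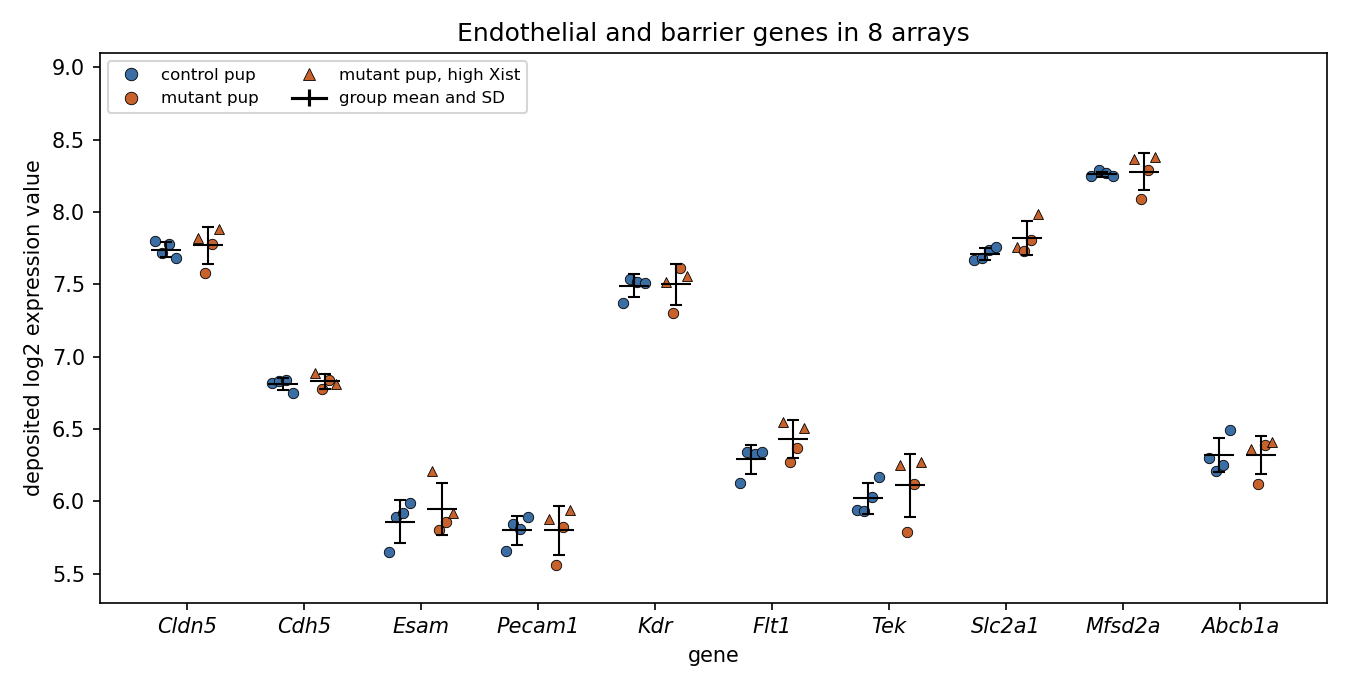
Deposited log2 expression values (y axis) of the 10 endothelial and barrier genes (x axis), 1 symbol for each of the 4 control and 4 mutant pups, triangles for the 2 mutants with high Xist, and crossbars for the mean ± SD of a group. The 2 groups overlap in every gene, and mutant replicate 2 is the lowest of all 8 arrays in 6 of the 10.

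Differences of the junction and adhesion genes were smaller than the spread between pups of a group. Cldn5, the main claudin of the barrier's tight junctions, read 7.80, 7.72, 7.78 and 7.68 in the controls and 7.82, 7.58, 7.78 and 7.88 in the mutants, each in the order of replicates 1 to 4, as in all that follow. Both the lowest and the highest value belong to mutants, and the difference was 0.02 ± 0.07 (SE; 95% interval -0.14 to 0.18; limma adjusted p = 1). Cdh5, VE-cadherin of the adherens junctions, read 6.82, 6.83, 6.84 and 6.75 in controls and 6.89, 6.78, 6.84 and 6.81 in mutants. Its within-genotype SD of 0.0429 was the smallest of the 10, and its difference was 0.02 ± 0.06 (-0.11 to 0.15).

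Esam, an immunoglobulin-like adhesion molecule of endothelial tight junctions, had the widest range over the 8 arrays. It read 5.65, 5.89, 5.92 and 5.99 in controls and 6.21, 5.80, 5.86 and 5.92 in mutants. Control replicate 1 was the lowest of the 8 and mutant replicate 1 the highest, a range of 0.56, and the difference of 0.09 ± 0.10 (SE; interval -0.13 to 0.30) was smaller than either group's SD of 0.15 and 0.18. Pecam1, the adhesion protein CD31 found along endothelial contacts, read 5.66, 5.84, 5.81 and 5.89 in controls and 5.88, 5.56, 5.82 and 5.94 in mutants. The means of both groups were 5.80, with an interval of the difference from -0.19 to 0.19.

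The receptors were examined next. Kdr, the main signalling receptor of vascular endothelial growth factor A, read 7.37, 7.54, 7.52 and 7.51 in controls and 7.52, 7.30, 7.61 and 7.56 in mutants. The difference was 0.01 ± 0.08 (SE), and mutant replicate 2 was again the lowest array. Flt1, a receptor that binds the same ligand tightly and limits its action on Kdr, read 6.13, 6.34, 6.33 and 6.34 in controls and 6.55, 6.27, 6.37 and 6.51 in mutants. It had the smallest p of the 10 genes: 3 of 4 mutants lay above all controls, and the difference was 0.14 ± 0.08 (interval -0.04 to 0.32; unadjusted p = 0.109 in limma, adjusted p = 1; exact permutation p = 0.2, two-sided). With 4 arrays in each group this exact test cannot go below 0.0286. Without mutant replicates 1 and 4, the difference of Flt1 was 0.033. Tek, the angiopoietin receptor Tie2, read 5.94, 5.93, 6.03 and 6.17 in controls and 6.25, 5.79, 6.12 and 6.27 in mutants, a difference of 0.09 ± 0.10 that was -0.059 without mutant replicates 1 and 4 and 0.20 without mutant replicate 2. The mutant SD of Tek, 0.22, was the widest of any group of the 10 genes.

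The transporters also overlapped between the genotypes. Slc2a1, the glucose carrier GLUT1, read 7.67, 7.68, 7.74 and 7.76 in controls and 7.76, 7.73, 7.81 and 7.99 in mutants. Mutant replicate 4 stood highest, and the difference was 0.11 ± 0.07 (SE; interval -0.04 to 0.27; limma unadjusted p = 0.142, adjusted p = 1), or 0.056 without mutant replicate 4. Mfsd2a, a lipid carrier that brings docosahexaenoic acid into the brain and holds down vesicle transport, was nearly level in controls at 8.25, 8.29, 8.27 and 8.25. In mutants it read 8.37, 8.09, 8.29 and 8.38, so that the mutants lay on both sides of the controls and the difference was 0.02 ± 0.07. Abcb1a, the efflux pump P-glycoprotein, read 6.30, 6.21, 6.25 and 6.49 in controls and 6.36, 6.12, 6.39 and 6.41 in mutants, a difference of 0.0027 ± 0.08 (interval -0.18 to 0.19). Its close paralog Abcb1b has a probe set of its own (3.95 in controls and 3.91 in mutants, -0.05 ± 0.08), and no source here states whether the probes tell the 2 transcripts apart.

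**Figure D2:**
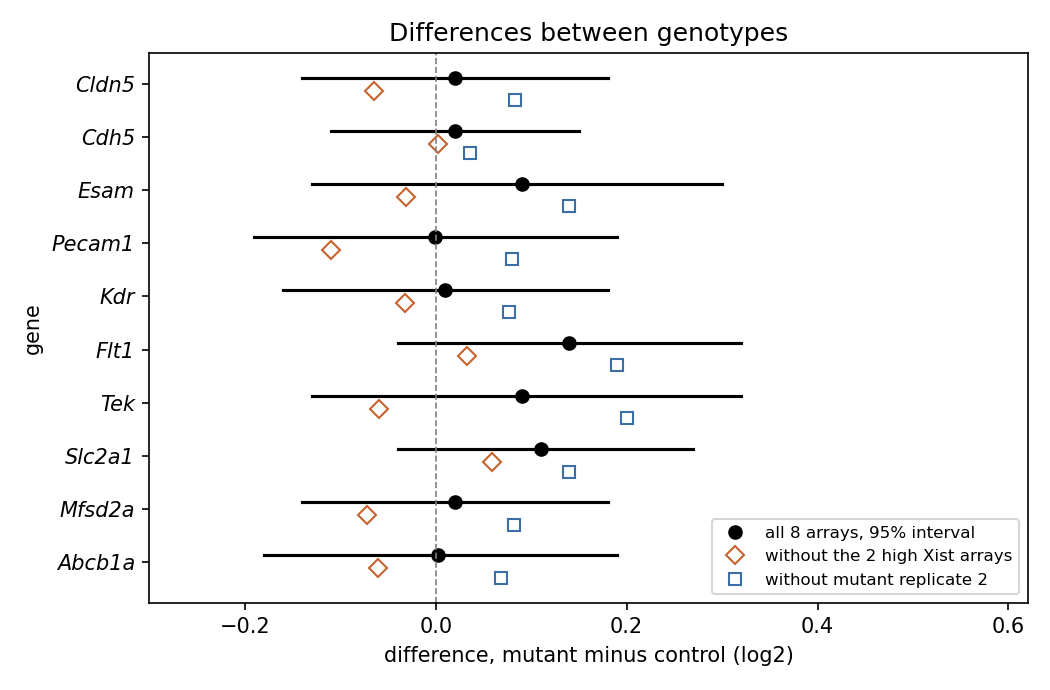
Mutant minus control on the log2 scale (x axis) for each of the 10 genes (y axis), with 95% intervals from limma over all 8 arrays and open symbols for the fits without both high Xist arrays and without mutant replicate 2. All 10 intervals cover 0, and the signs follow the arrays that are left out: 3 of 10 are positive without the high Xist arrays and 10 of 10 without mutant replicate 2.

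The signs of the 10 differences changed with the arrays left out. Over all arrays 9 of 10 were positive, against 44.6% of all genes, with a median of 0.021. Without mutant replicates 1 and 4, the 2 with high Xist, 3 of 10 were positive (Flt1, Cdh5 and Slc2a1) and the median was -0.046, against -0.017 over all genes. With Y-linked expression as a covariate it was -0.048, again with 3 of 10 positive. Without mutant replicate 2, by contrast, 10 of 10 were positive and the median was 0.083. In that fit Flt1 read 0.19 and Tek 0.20, with unadjusted p of 0.0369 and 0.0328 in limma and adjusted p of 1 for both. Leaving out a control moved signs as well, with 7 of 10 positive without control replicate 1 and 10 of 10 without control replicate 4. In 5 genes (Cldn5, Flt1, Tek, Mfsd2a and Slc2a1) both high Xist mutants lay above all 4 controls, as they did in 5.63% of all genes, a count made after the values had been seen. Since only mutants were female, sex and genotype are partly mixed in this comparison, and the part of sex in these values was not tested.

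The 10 genes varied together from pup to pup. Each gene was set against its own mean over the 8 arrays, and mutant replicate 2 was below that mean in 10 of 10 genes (-0.15 on average), while mutant replicates 1, 3 and 4 were each above it in 9 of 10. Control replicate 1 was below it in 8 of 10 (-0.10 on average). Of all genes, 44.2% were above their own mean in mutant replicate 2 and 51.7% in control replicate 1. In mutant replicates 1, 3 and 4 the shares were 53.1%, 46.9% and 48.3%. Over all genes the same array averages lay between -0.01 and 0.03. Array medians of the deposited values were also close together (4.94 to 5.01), so these averages cannot show whether the whole array shared a shift. Mutant replicate 2 was the lowest array in 6 of the 10 genes, against 17.0% of all genes, and mutant replicate 4 the highest in 5, against 9.62%.

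**Figure D3:**
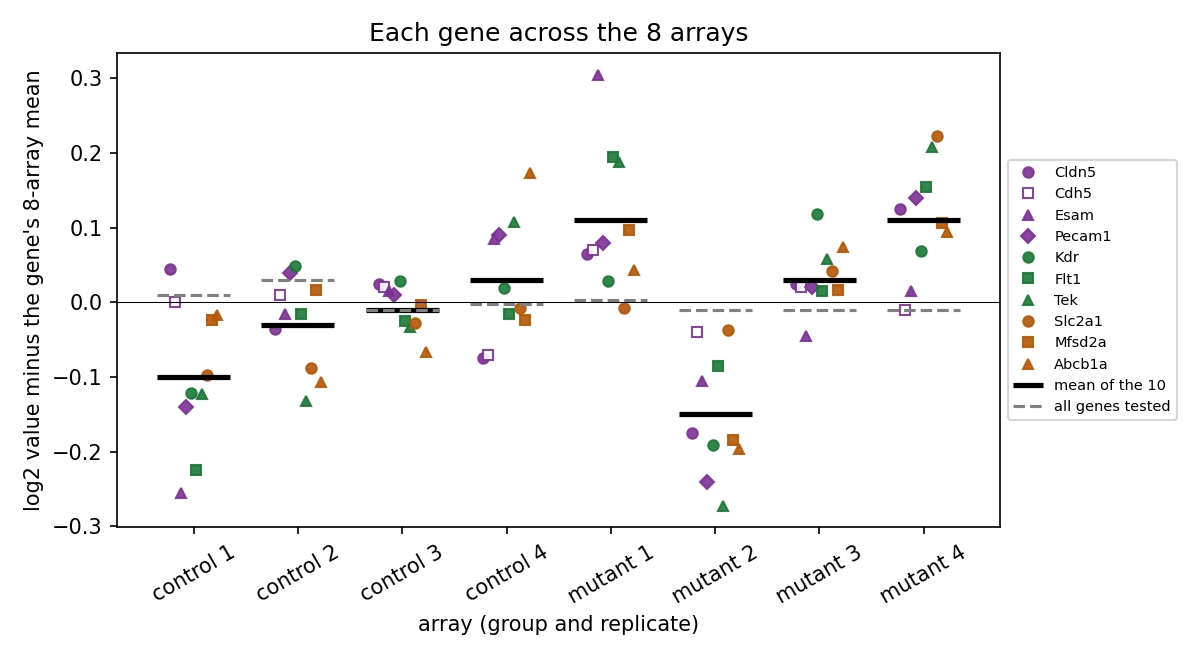
Log2 value minus the gene's mean over 8 arrays (y axis) for each of the 10 genes in each array (x axis), purple for junction and adhesion genes, green for receptors and brown for transporters, with a black bar for the mean of the 10 and a dashed grey bar for all genes tested. The mean of the 10 is lowest in mutant replicate 2 (-0.15) and highest in mutant replicates 1 and 4 (0.11 each), and the bar of all genes stays between -0.01 and 0.03.

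Of the 45 pairs among the 10 genes, 43 had a positive Pearson r over the 8 arrays, with a median of 0.58, and 66.7% of the pairs exceeded 0.5. Over all 198751953 pairs of genes tested the median was 0.02 and 11.8% exceeded 0.5. Genes are not independent replicates, and these shares are a description of the 8 arrays. After the mean of each genotype had been removed, the median of the 45 pairs was again 0.58, so it did not depend on differences between these means. This step left female and male mutants together, and in each of the 10 genes the SD was larger in mutants than in controls. Without the high Xist arrays the median was 0.49, with 39 pairs positive. Co-variation within each genotype alone, and the part of sex in it, was not tested. By the exact permutation test of r over all 8 arrays, 14 pairs had an unadjusted p under 0.05 and 4 passed after Benjamini-Hochberg adjustment over the 45 pairs. With genotype means removed and permutation within genotypes, 7 pairs had an unadjusted p under 0.05 and 0 passed.

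The 4 pairs past the threshold linked Mfsd2a, Pecam1, Tek and Cldn5. The highest r was that of Cldn5 with Mfsd2a (r = 0.90, exact permutation p = 0.00332, rho = 0.72 with p = 0.0521), the tight junction protein with the lipid carrier. With genotype means removed its r was 0.89, below the 0.91 of Pecam1 with Flt1 and of Pecam1 with Tek. Pecam1 with Tek had r = 0.87 (exact permutation p = 0.00198; rho = 0.83, p = 0.0154) and Pecam1 with Mfsd2a r = 0.87 (p = 0.00365; rho = 0.74, p = 0.0458). Tek with Mfsd2a had r = 0.85 (exact permutation p = 0.00357; rho = 0.76, p = 0.0368). All 4 had an adjusted p of 0.041 by the permutation test of r, while by rank correlation 0 of the 45 pairs passed and the smallest adjusted p was 0.10. That smallest p belonged to Flt1 with Mfsd2a, the pair of highest rho (0.93, exact permutation p = 0.00223). Its r was 0.70 (adjusted p = 0.165 by the permutation test of r).

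The correlations were computed again without the arrays at the ends of the range. Leaving out the 2 arrays farthest from the median of the first gene of a pair gave r = 0.51 for Cldn5 with Mfsd2a, 0.75 for Pecam1 with Tek, 0.65 for Pecam1 with Mfsd2a and 0.61 for Tek with Mfsd2a. Over all 45 pairs the median then fell from 0.58 to 0.23, with 34 pairs positive. Cutting the range of a gene tends to lower r by itself, and the pairs of all genes were not cut in this way. This fall therefore cannot show how far the relations rest on the arrays left out. Pecam1 with Kdr had r = 0.88 over 8 arrays (exact permutation p = 0.0141, adjusted p = 0.0907, rho = 0.50 with p = 0.216). For this pair r was -0.20 without control replicate 1 and mutant replicate 2, and 0.71 without mutant replicate 2 alone. Without mutant replicate 2 alone the median of the 45 pairs was 0.47, 42 pairs were positive and 0 passed the threshold.

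**Figure D4:**
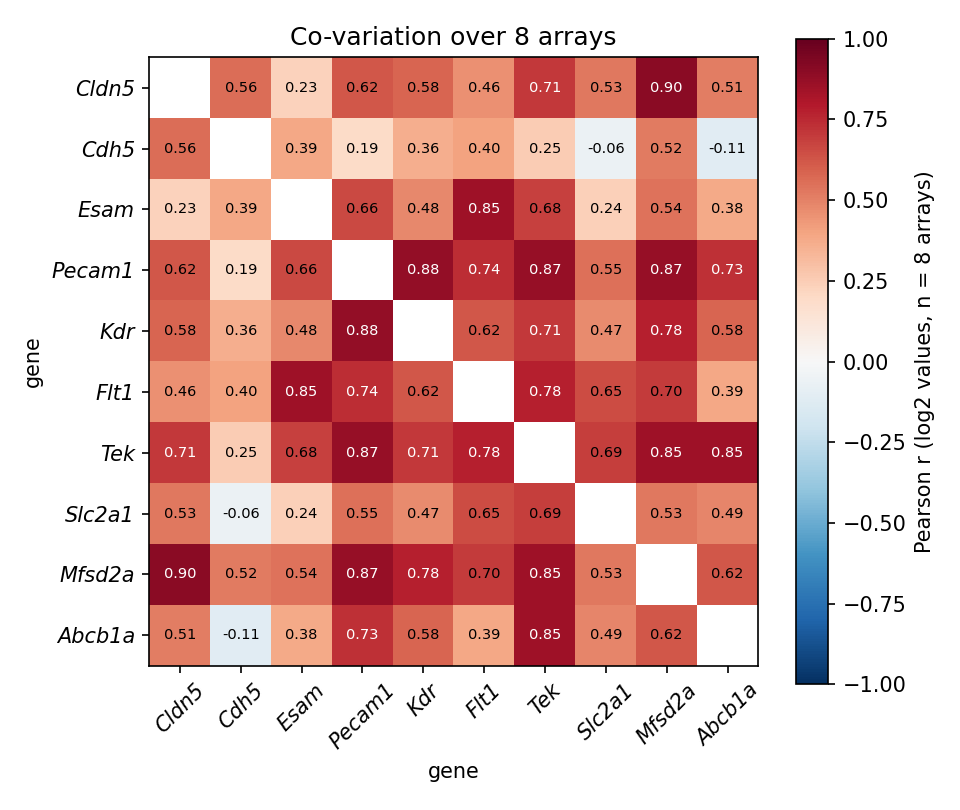
Pearson r over 8 arrays (colour and number) for every pair of the 10 genes, in the order junction and adhesion genes, receptors, transporters. Most pairs are positive (43 of 45), the highest value is 0.90 for Cldn5 with Mfsd2a, and the row of Cdh5 is the palest.

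The genes differed in how closely they followed the others. Pecam1, Tek and Mfsd2a had the highest median r with the other 9 genes, at 0.73, 0.71 and 0.70, and Cdh5 the lowest, at 0.36, with -0.11 against Abcb1a (exact permutation p = 0.809; rho = -0.12, p = 0.793) as its lowest value. Cdh5 also had the narrowest range over the 8 arrays, 0.14, against 0.29 to 0.56 in the other 9. Flt1 was closest to Esam (r = 0.85, exact permutation p = 0.0128, adjusted p = 0.0907; rho = 0.62, p = 0.115), and Abcb1a to Tek (r = 0.85, p = 0.00799, adjusted p = 0.0719; rho = 0.86, p = 0.0107). Slc2a1, which astrocytes also make, had a median r of 0.53, above those of Abcb1a (0.51) and Esam (0.48).

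Other genes of the same cells and pathways, and markers of other cell types, gave 0 calls. Over 13 further lists with 211 distinct genes, of which 194 were tested, 0 passed in limma in either direction and 10, or 5.15%, had an unadjusted p under 0.05, close to the 4.91% of all genes. Of 26 other endothelial identity genes 14 differences were positive and 12 negative, with a median of 0.0053. The members of smallest p were Myct1 (-0.24 ± 0.11, SE), Nos3, the endothelial nitric oxide synthase (-0.12 ± 0.08), and Rasip1, which acts in vessel lumen formation (-0.11 ± 0.09). Tie1, the orphan relative of Tek, read 0.03 ± 0.08. The median of the list's correlations with the 10 genes was 0.29, against 0.02 for all genes with the 10, and 29.2% of its pairs exceeded 0.5, against 12.4%.

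Among ligands and coreceptors of the growth factor pathways, 13 of 23 differences were positive and 0 passed. Vegfa, the ligand of Kdr and Flt1, read 7.63 ± 0.12 (SD, n = 4) in controls and 7.56 ± 0.08 in mutants, and Angpt1, the ligand that activates Tek, 5.46 ± 0.27 and 5.49 ± 0.17. Nrp2, a coreceptor for vascular growth factors and semaphorins, had the smallest p of this list, with -0.21 ± 0.07 (SE; limma unadjusted p = 0.0115, adjusted p = 0.907). Ptprb, the phosphatase that restrains Tek, followed with 0.17 ± 0.07 (adjusted p = 0.988), and Angpt2, which opposes Angpt1 at Tek, with -0.12 ± 0.09. Of 19 genes of Wnt signalling to the barrier 12 differences were positive. Adgra2, the coreceptor for Wnt7 ligands in brain endothelium, read 0.16 ± 0.08 and its partner Reck 0.07 ± 0.07, while the ligands Wnt7a and Wnt7b read 0.04 ± 0.06 and -0.03 ± 0.11. Foxq1, a forkhead factor, and Nkd1, a Wnt feedback gene, read 0.11 ± 0.06 and -0.13 ± 0.07.

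Junction, transport and vesicle genes beyond the 10 were examined in the same way. Of 20 other junction genes 10 differences were positive, and the smallest p belonged to Jam3, a junctional adhesion molecule (-0.17 ± 0.08, SE), Lsr, of tricellular junctions (-0.13 ± 0.08), and Gja5, a connexin of arteries (-0.14 ± 0.10). Of 20 other barrier transporters 12 were positive, and the smallest p belonged to Slc38a3, a glutamine carrier (0.16 ± 0.08), Abcc4, an efflux pump (0.16 ± 0.11), and Tfrc, the transferrin receptor (-0.11 ± 0.09). These transporters followed the 10 genes more closely than any of the other 12 lists by median r, at 0.40, with 35.5% of pairs over 0.5. Of 10 genes of vesicle transport and permeable vessels 4 were positive, with a median of -0.066, and Plvap, the diaphragm protein of leaky vessels, was at 6.08 ± 0.07 (SD, n = 4) in controls and 6.01 ± 0.19 in mutants. Of its genes of caveolae, Cav2, Cavin2 and Cavin1 had the smallest p and read -0.18 ± 0.11 (SE), -0.11 ± 0.07 and -0.07 ± 0.08, while Cav1 and Cavin3 read 0.04 ± 0.11 and 0.07 ± 0.11. The median r of this list with the 10 genes was -0.02. Of 12 genes of the vascular basement membrane 10 were positive, with a median of 0.058, and Lama4, Nid1 and Lama5 read 0.16 ± 0.08, 0.15 ± 0.10 and -0.08 ± 0.06.

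Markers of the other cells in the captured tissue were set beside the 10 genes, array by array. All 16 mural cell markers were tested, with 11 differences positive, and their mean level ran from 5.34 to 5.41 in controls and from 5.28 to 5.45 in mutants. Pdgfrb, Vtn and Zic1 had the smallest p of these (0.14 ± 0.08, -0.15 ± 0.09 and 0.13 ± 0.10, SE), and Rgs5, a marker of pericytes, read 8.02 in controls and 8.01 in mutants. Mural markers were also lowest in mutant replicate 2, at -0.10 from their mean over the 8 arrays, as were astrocyte markers (-0.08), microglia markers (-0.12), the other endothelial genes (-0.12) and the other transporters (-0.14). The other junction genes and the growth factor list were lowest there too (-0.06 each). Over all genes this array was the one most often lowest (17.0%). The Wnt, vesicle, basement membrane, fibroblast and red blood cell lists were lowest in other arrays. Excitatory neuron markers read -0.02 from their mean in mutant replicate 2 and lowest in control replicate 4. The part of these cell types in the co-variation of the 10 genes was not tested.

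All 13 astrocyte and endfoot markers were tested, 8 of them positive, with mean levels from 6.89 to 6.98 in controls and from 6.87 to 7.03 in mutants. Aqp4, the water channel of endfeet, read 7.84 ± 0.19 (SD, n = 4) and 7.89 ± 0.20, and Kcnj10, Fgfr3 and Gfap had the smallest p (0.13 ± 0.06, 0.12 ± 0.07 and -0.11 ± 0.06, SE). Of 11 microglia markers 10 were tested, 3 of them positive, with mean levels from 4.65 to 4.91 and from 4.61 to 4.76, and P2ry12, Trem2 and C1qc read -0.27 ± 0.10, -0.12 ± 0.07 and -0.14 ± 0.10. Of 12 excitatory neuron markers 11 were tested, with levels from 8.66 to 8.91 and from 8.74 to 8.85, and Neurod6, Tbr1 and Bcl11b read -0.39 ± 0.09, 0.17 ± 0.07 and 0.09 ± 0.06 (limma adjusted p from 0.535). All 11 markers of fibroblasts and meninges were tested, 3 of them positive. Control replicate 1 stood 0.34 above their mean, and levels ran from 4.69 to 5.11 in controls and from 4.70 to 4.78 in mutants. Foxc1, Dcn and Slc6a13 of that list read 0.24 ± 0.08, -0.55 ± 0.25 and -0.13 ± 0.09, and its median r with the 10 genes was -0.17. Only 5 of 13 red blood cell genes were tested, with levels from 4.83 to 4.96 and from 4.80 to 4.89, and Slc4a1, Alas2 and Epb42 read -0.20 ± 0.08, -0.10 ± 0.08 and -0.06 ± 0.09. The adult globin genes were not among them. Control means were 2.88 for Hbb-y and 3.54 for Epb42, against 8.15 for Bpgm, so the list says little about blood left in the vessels. By median r with the 10 genes, astrocyte markers stood at 0.30, mural markers at 0.24, microglia markers at 0.22, red blood cell genes at 0.09 and excitatory neuron markers at 0.10, against 0.29 for the other endothelial genes. This order changed once genotype means were removed. Microglia markers then stood at 0.37, the other endothelial genes at 0.36, astrocyte markers at 0.27 and mural markers at 0.26. Red blood cell genes stood at 0.13 and excitatory neuron markers at 0.09.

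Across all other genes, those whose pattern was most like the mean of the 10 after removal of genotype means were ranked by Pearson r over the 8 arrays. The 8 closest of 19928 genes had r from 0.977 to 0.984: 4930513N10Rik, Olfr1311, Nrp2, Tpp1, Rtf2, Cpsf4l, L3mbtl2 and Gnl3l. All 8 were lowest in mutant replicate 2, as was the mean of the 10 by which they were ranked, so this is no separate result. With so many genes and 8 arrays, high values of r are to be found in any ranking of this kind, and these are given as a description, with no p. Nrp2 is the one among them on the lists above, and without removal of the genotype means its r with the 10 was 0.30.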

How the data were processed

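The deposited table holds log2 values of 35556 probe sets in 8 columns, made by the authors with BRB-ArrayTools per the labels. How they corrected background, normalized and summarized probes, and on which build, is not stated in any source at hand, and log2 was read from the values (0.74 to 13.63). Probe sets were named from the platform annotation, with symbols set to GRCm38.p6 through the Entrez identifier (21698 of 21789 matched). Only probe sets naming 1 gene were used, keeping the highest mean over 8 arrays, which left 19938 genes. The genotypes were compared by limma 3.58.1 under R 4.3.3 (genotype as the only term, two-sided, Benjamini-Hochberg over all genes, threshold 0.05), checked on simulated data. The number of arrays limits the precision.

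The 10 genes and the lists were chosen with earlier results of these data known. Named genes were the 10, the 3 of smallest p in each other list and defining markers; the 8 closest patterns were ranked by r. Pairs were tested by exact permutation of r over all orders of 8 arrays. Motifs were searched in the 250 bases before each RefSeq start. Alternatives were quantile normalization, median centring, a filter on dim genes, other priors, array weights, a replicate block, averaged probe sets, Y-linked level as a covariate, and leaving out arrays. Protein sequences were not used here.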

Additional observations from a re-analysis of the deposited data

Results flagged for a closer look

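In 20 groups of 4 arrays (10 genes, each in controls and mutants) the highest and lowest values were compared with the rest of their group by the gap to the nearest value over the range, against Dixon's critical value. Chance alone passes it in about 1 of 20 groups. Flt1 in control replicate 1 read 6.13, below 6.33 to 6.34 in the other controls (gap over range 0.931). Without that array the difference of Flt1 was 0.088 in place of 0.14, with a limma adjusted p of 1 in both fits. Abcb1a in mutant replicate 2 read 6.12, below 6.36 to 6.41 in the other mutants (0.836). Without that array the difference of Abcb1a was 0.068 in place of 0.0027.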

How the results depend on the processing

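In all 18 alternatives 0 of the 10 genes passed the threshold in limma: of 180 differences the lowest adjusted p was 0.973 and 2 had an unadjusted p under 0.05, while 147 kept their direction and 33 changed it. With the Y-linked covariate the differences turned to -0.067 for Cldn5, -0.036 for Kdr, -0.061 for Tek, -0.072 for Mfsd2a, -0.066 for Abcb1a and -0.024 for Esam, and without the 2 high Xist arrays to -0.065, -0.032, -0.059, -0.072, -0.061 and -0.031 in the same order. Pecam1 turned to 0.0083 after quantile normalization, 0.011 after median centring and 0.014 with array weights, and Abcb1a to -0.00024 after quantile normalization. The cause of these turns was not tested. Leaving out 1 array gave ranges of -0.017 to 0.083 for Cldn5, -0.049 to 0.08 for Pecam1, -0.027 to 0.077 for Kdr, -0.014 to 0.082 for Mfsd2a, -0.031 to 0.068 for Abcb1a and -0.00086 to 0.14 for Esam, and 0.0011 to 0.083 for the median of the 10. The 4 pairs past the threshold were 2 after quantile normalization, 0 with genotype means removed, 0 without the high Xist arrays and 0 to 3 with 1 array left out, where the median r ran from 0.47 to 0.65. With the replicate block 0 of the 10 genes passed and 5 of all genes were called, against 13; same-numbered arrays correlated by -0.01 to 0.16 in their deviations and 3 of 8 arrays were closest to their own number, so the numbers were not taken as pairs. The 13 other lists had 0 calls in each of the 11 alternatives run for them. Detection and signal over background could not be read from the table, which limits what low values show.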
